A study of Rattus norvegicus with 12 samples.

Results

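The cytochrome P450 genes and Por were examined in a high Fe and a low Fe group of rats, in mucosa scraped from the jejunum, the stretch of small intestine between duodenum and ileum. The members are all probe sets (the groups of short probes that read a transcript on an Affymetrix array) whose only gene symbol in the platform annotation is Cyp followed by a digit, together with those of Por. There were 68 such probe sets among 31142 on the array types 230A and 230B: 59 on 230A for 54 genes and 9 on 230B for 8 genes. They read 59 genes in all, of which 3 were on both types and 8 had more than 1 probe set. A further 6 P450 probe sets on 230A and 1 on 230B carry several symbols, as near-identical copies do, and lie outside the rule.

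Both groups are labelled 12 week, and the keywords are anemia and iron deficiency. There were 3 samples per group on each array type, numbered 1 to 3 in the titles, for 12 arrays in all. Strain, sex, age, diet composition and whether each sample is a separate animal are not given in the sources used here, so p-values cover only the spread among the samples at hand, and that spread may be technical. A scrape mixes epithelium with other cells of the gut wall, and in such a sample fewer cells of a type and less RNA per cell cannot be told apart.

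Cytochromes P450 are enzymes that hold a heme iron at their active site and use it to split molecular oxygen, putting an oxygen atom into the substrate. Families with low numbers act mainly on drugs, plant compounds and fatty acids, and others build or break down sterols, bile acids, steroid hormones, vitamin D and retinoic acid. Most sit in the endoplasmic reticulum and receive electrons from Por, the P450 oxidoreductase, while the mitochondrial members receive them from ferredoxin. In the small intestine they meet drugs and dietary compounds at the first pass.

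Signals are linear intensities scaled by the authors to about the same mean on every array. Differences are low Fe minus high Fe on the log2(signal + 16) scale, which understates the change of dim probe sets, and errors on them are standard errors. Probe sets in the lowest 40% by mean over the 6 arrays of a type, under a boundary signal of 106 on 230A and 182.9 on 230B, were not tested. Testing thus covered 28 members on 230A (25 genes) and 7 on 230B (6 genes), or 30 genes, and left 29 genes with no tested probe set. Adjusted p-values are limma's with Benjamini-Hochberg adjustment over all tested probe sets of a type, and 0.05 is the threshold.

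Of the tested P450 and Por probe sets, 0 of 28 on 230A and 0 of 7 on 230B passed the threshold. The limma adjusted p-values lay between 0.523 and 0.984 on 230A, and on 230B between 0.485 and 0.943. Over all tested probe sets, 0.0945% passed on 230A (9 of 9519) and 0% on 230B (0 of 9165). At an unadjusted limma p under 0.05 there were 3 of 28 members on 230A, all lower in low Fe (Cyp1a1, Cyp27a1 and Cyp4f5), against 3.51% of all probe sets in that direction, and 0 of 28 higher, against 3.17%. On 230B there was 1 of 7, Cyp20a1, which was higher, against 4.94%, and 0 of 7 were lower, against 5.23%. Cyp20a1 was under the boundary in all 3 high Fe samples and passed the filter only through the low Fe group, where it was high, so nothing is read from its count. The 230A count of lower members was 6 of 28 without low Fe 1, against 6.87% of all probe sets in that refit, and 5 of 28 without high Fe 3, against 2.66%. It was 2 of 28 without high Fe 2, against 2.5%, or without low Fe 2, against 2.07%. Without high Fe 1 it was 3 of 28, against 5.65%, with 1 of 28 higher, against 4.25%. The 230B count fell to 0 without high Fe 2, high Fe 3, low Fe 2 or low Fe 3.

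The 3 low Fe samples lay below all 3 high Fe samples for 5 of 28 members on 230A (Cyp1a1, Cyp27a1, both probe sets of Cyp2d4, and Cyp4f1), against 6.18% of all tested probe sets, and above them for 0 of 28, against 5.61%. On 230B they lay above for 1 of 7 members, Cyp20a1, against 7.11%, which entered the test only through its low Fe values, and below for 0 of 7, against 10.3%. Differences were below 0 for 21 of 28 members on 230A, or 75.0% against 53.1% of all probe sets, with a median of -0.17 against -0.015, or -0.11 without low Fe 2. Cyp27b1 counts among the 21, and by its mean it passed the filter only through high Fe, where it was higher. With a filter on the mean linear signal, which left Cyp27b1 out, the count was 20 of 27, or 74.1% against 53.2%. On 230B 4 of 7 were below 0, or 57.1% against 55.0%, with a median of -0.052 against -0.041, or 0.05 without high Fe 3. Cyp20a1 counts among the 230B members above 0. These directions depend on the scaling: with arrays scaled to the spiked hybridization controls, the median of all probe sets moved to 0.34 on 230A and 0.14 on 230B, and 4 of 28 and 1 of 7 members lay below 0, while relative to that shift the counts were 21 of 28 and 4 of 7. Directions given for single genes below are on the authors' scaling.

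**Figure D1:**
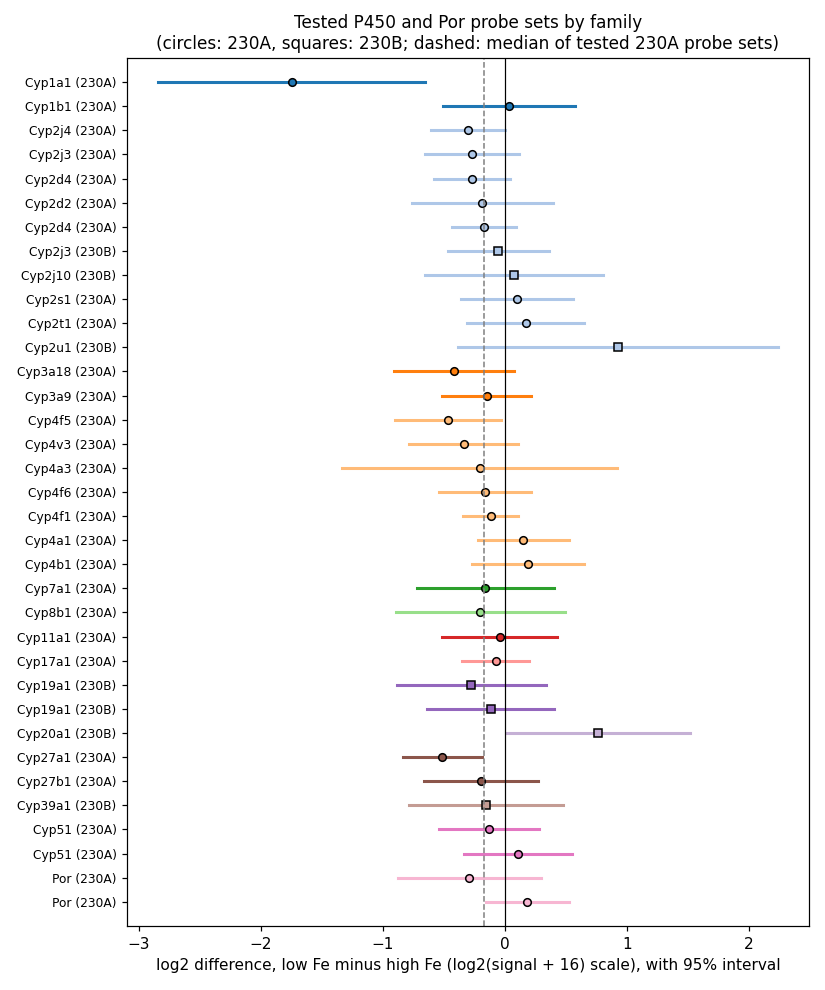
Log2 difference, low Fe minus high Fe, of each tested P450 and Por probe set with its 95% interval, ordered by family number with Por last; circles are 230A, squares 230B, and the dashed line is the median of the tested 230A members at -0.17. The interval of Cyp1a1 runs from -2.84 to -0.65, and 4 of the 35 intervals leave out 0, those of Cyp1a1, Cyp4f5, Cyp27a1 and Cyp20a1. An interval leaves out 0 where the unadjusted limma p is under 0.05. Of all tested 230A probe sets this held for 3.51% lower in low Fe and 3.17% higher, and on 230B for 5.23% and 4.94%. Cyp20a1 was tested only through its low Fe values, so nothing is read from its interval.

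Family 1 holds the P450s that oxidize polycyclic aromatic hydrocarbons and are induced through the aryl hydrocarbon receptor, Ahr. Core letters of the element that this receptor binds are GCGTG, and the promoters of the members were searched for them because Ahr is the known inducer of the family. RefSeq promoters of assembly GRCr8, from 250 bases before to 50 after the annotated start, were used for 47 of the 59 member genes, Cyp1a1 not among them. GCGTG on either strand, overlaps counted, was in 13 of these, or 27.7%, against 29.7% of all 33469 promoters of that length. Of the 24 tested member genes with a promoter, 10 held it. Whether that count differs from the share of all promoters was not tested. Shown are the 100 bases before the start of Cyp1b1 of family 1, of Cyp20a1, whose signal was higher in low Fe without overlap, and of Cyp27a1, whose signal was lower; capitals mark GCGTG or its reverse complement CACGC, and all lie on the plus strand.
Cyp1b1, chr6:21094465-21094564: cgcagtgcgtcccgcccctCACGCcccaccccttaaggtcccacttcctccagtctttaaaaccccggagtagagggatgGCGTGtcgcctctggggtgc
Cyp20a1, chr9:69249773-69249872: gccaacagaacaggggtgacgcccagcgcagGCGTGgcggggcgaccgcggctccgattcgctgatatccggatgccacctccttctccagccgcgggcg
Cyp27a1, chr9:83713432-83713531: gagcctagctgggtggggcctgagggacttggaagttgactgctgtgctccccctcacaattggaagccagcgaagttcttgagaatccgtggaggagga
The letters begin 81 and 20 bases before the start in Cyp1b1 and 69 bases before it in Cyp20a1, and they are not in the window of Cyp27a1. A match of so few letters is a description of the sequence and not a binding site. Cyp20a1 and Cyp27a1 were picked by their differences in these same data, and Cyp20a1 was tested only through its low Fe values. A link between the letters and the direction of a difference was not tested.

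Cyp1a1, the hydrocarbon-oxidizing enzyme of family 1, had signals of 713.8, 371.9 and 377.5 in high Fe samples 1 to 3 and 149.4, 48.3 and 261.8 in low Fe samples 1 to 3. Every low Fe sample lay below every high Fe sample, and the values spread widely within each group. The means were 488 ± 196 in high Fe and 153 ± 107 in low Fe (SD, n = 3 each), with a log2 difference of -1.75 ± 0.48, or 3.35-fold lower in low Fe. The limma adjusted p was 0.523, with an unadjusted p of 0.00574. Leaving out single arrays gave -2.22 to -1.17. The difference was -2.45 within the 3 arrays of lower GAPDH control ratio (high Fe 1, low Fe 2 and low Fe 3, described with Cyp2u1) and -1.24 within the other 3. With arrays scaled to the hybridization controls, Cyp1a1 passed (limma adjusted p = 0.0306, log2 difference of -1.41 as scaled and -1.75 relative to all probe sets), as did 0.336% of all probe sets (32 of 9519) in that fit, and it was the 1 member that passed under any setting tried. It was not tested where the lowest 60% of probe sets were left out.

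Cyp1b1, which oxidizes hydrocarbons and estradiol, had signals of 96.8, 88.5 and 165.5 in high Fe and 130.1, 105.5 and 112.9 in low Fe. The groups overlapped, and the difference of 0.03 ± 0.24 changed sign without high Fe 1, high Fe 2 or low Fe 1. Cyp1a2, the third gene of the family, was under the boundary, with 32.6, 35.6 and 97.3 in high Fe and 28.1, 22.4 and 24.5 in low Fe, and was not tested. Its groups did not overlap either. Among the Ahr-linked genes of the other lists, Ahr itself had 129.1, 189.5 and 207.8 in high Fe and 125.0, 122.0 and 163.0 in low Fe. The Ahr difference was -0.31 ± 0.22 (limma adjusted p = 0.806), with 0.12 within the arrays of lower GAPDH ratio and -0.60 within the others. Nqo1, a quinone reductase that Ahr also induces, differed by 0.001 ± 0.16 (limma adjusted p = 0.999). Tiparp differed by 0.16 ± 0.20 on 230A and by -0.28 ± 0.62 on 230B, and Ahrr by 0.05 ± 0.24 on 230B. Arnt and Aldh3a1 were under the boundary and were not tested.

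**Figure D2:**
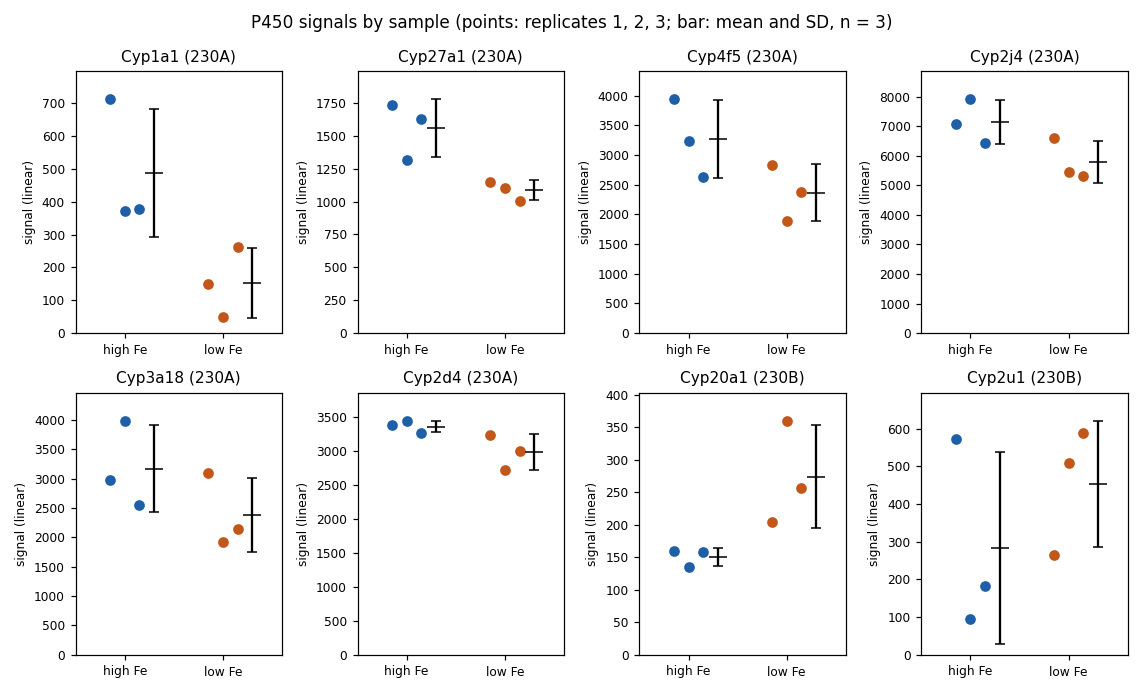
Linear signal of 8 P450 probe sets in each sample, with high Fe in blue and low Fe in orange, points in replicate order and a bar for the mean and SD (n = 3); each axis starts at 0. The low Fe points of Cyp1a1, Cyp27a1 and Cyp2d4 lie below all their high Fe points, and those of Cyp20a1 lie above.

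Family 2, the largest group on the arrays, metabolizes drugs and fatty acids. On 230A 7 of its 24 probe sets were tested, with a median difference of -0.19, 5 below 0 and 2 above. The median was -0.31 without low Fe 1, -0.30 without high Fe 3 and -0.11 without low Fe 2. All 7 Cyp2c, 3 Cyp2a and 3 Cyp2b probe sets were under the boundary, with single-array values from 6.8 to 110.5, 1.7 to 110.5 and 4.3 to 104.2. The tested members were of the Cyp2d, Cyp2j, Cyp2s and Cyp2t subfamilies.

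Cyp2j4, a fatty acid epoxygenase, had signals of 7075.3, 7930.3 and 6439.5 in high Fe and 6621.8, 5458.3 and 5328.7 in low Fe. It had the smallest unadjusted p of the family, and low Fe 1 overlapped the high Fe range. The difference was -0.30 ± 0.13 (limma adjusted p = 0.745), with -0.39 within the arrays of lower GAPDH ratio and -0.11 within the others. Cyp2j3, its relative, was read by a probe set on each array type. On 230A the signals were 778.4, 718.6 and 675.3 in high Fe and 746.4, 493.1 and 576.6 in low Fe, a difference of -0.27 ± 0.17. On 230B they were 1401.0, 1275.1 and 1366.2 against 1594.9, 1200.9 and 1141.8, a difference of -0.05 ± 0.18. On both types low Fe 1 lay within or above the high Fe range and low Fe 2 and 3 lay below it. Within the arrays of lower GAPDH ratio the Cyp2j3 difference was -0.53 on 230A and -0.26 on 230B. Within the others it was 0.10 and 0.27.

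Cyp2d4, a drug and steroid hydroxylase, was read by a pair of probe sets whose groups did not overlap. The brighter had 3386.9, 3440.1 and 3269.2 in high Fe and 3247.3, 2718.7 and 3009.3 in low Fe. The dimmer had 512.9, 479.7 and 436.6 against 417.9, 395.5 and 366.0. The separation was small in both, with differences of -0.17 ± 0.12 (limma adjusted p = 0.801) and -0.27 ± 0.14 (limma adjusted p = 0.768). Cyp2d2 differed by -0.19 ± 0.25, and it turned to 0.12 without high Fe 1, whose signal of 1071.4 stood above the other 5, from 533.7 to 744.8. Its difference was -0.93 within the arrays of lower GAPDH ratio, which hold high Fe 1, and 0.39 within the others. Cyp2s1, an epithelial P450, differed by 0.10 ± 0.20, and Cyp2t1 by 0.17 ± 0.21.

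On 230B all 3 family 2 probe sets were tested. Cyp2u1, which hydroxylates long-chain fatty acids, had 573.2, 94.6 and 182.3 in high Fe and 265.4, 507.5 and 587.2 in low Fe. The difference was 0.93 ± 0.57 (limma adjusted p = 0.578), with an interval from -0.38 to 2.23, and it was 0.38 without high Fe 2 and 1.59 without high Fe 1. The high samples were high Fe 1, low Fe 2 and low Fe 3. These 3 also had the lowest ratios of 5' to 3' signal of the GAPDH control probe sets on both array types, a measure of RNA integrity. On 230A the ratios were 0.811, 0.807 and 0.794, against 0.876 to 0.922 on the other arrays. On 230B they were 0.831, 0.821 and 0.873, against 0.877 to 0.939, so the sets nearly met. The ratios of the beta-actin controls on 230B were 0.499, 0.640 and 0.0473 in the same order. In each set, a single array stands for a group. Within these 3 arrays the Cyp2u1 difference was -0.07, and within the other 3 it was 0.93. Cyp2j10 differed by 0.07 ± 0.32, with 0.48 and -0.58 within the same sets.

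Family 3 includes the main drug-metabolizing P450s of gut and liver. Cyp3a9 had 7621.3, 11059.1 and 7674.1 in high Fe and 8560.2, 7515.0 and 7373.3 in low Fe, a difference of -0.15 ± 0.16 (limma adjusted p = 0.866). It turned to 0.03 without high Fe 2, the sample that stood above the rest. Cyp3a18 had 2979.4, 3989.2 and 2546.9 against 3090.5, 1913.4 and 2136.7, a difference of -0.42 ± 0.22 (limma adjusted p = 0.768). Low Fe 2 and 3 lay below all high Fe samples and low Fe 1 did not. The Cyp3a18 difference was -0.56 within the arrays of lower GAPDH ratio and -0.04 within the others. Cyp3a2 and Cyp3a23-3a1 were under the boundary, with single-array values from 1.2 to 62.3.

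Family 4 hydroxylates the ends of fatty acids and eicosanoids such as leukotriene B4. On 230A 7 of its 12 probe sets were tested, with a median difference of -0.16, 5 below 0 and 2 above. The median was -0.28 without low Fe 3, -0.07 without low Fe 2 and -0.05 without high Fe 1. Cyp4f5 had 3944.4, 3230.6 and 2626.0 in high Fe and 2837.0, 1891.0 and 2371.3 in low Fe. Low Fe 1 overlapped the high Fe range. The difference was -0.46 ± 0.19 (limma unadjusted p = 0.0392, adjusted p = 0.730), or -0.89 within the 3 arrays of lower GAPDH ratio and -0.04 within the others.

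Cyp4f1 had 9656.6, 9883.4 and 9735.6 in high Fe and 8881.7, 9247.1 and 8876.7 in low Fe. The groups did not overlap, and the difference was small, -0.12 ± 0.10 (limma adjusted p = 0.848). Cyp4f6 differed by -0.16 ± 0.17 and the brighter Cyp4v3 probe set by -0.34 ± 0.20. Cyp4a1, a fatty acid hydroxylase induced through Ppara, differed by 0.15 ± 0.17, and Cyp4b1 by 0.19 ± 0.20. Cyp4a3 had 216.1, 107.0 and 178.6 against 276.8, 49.0 and 174.3, with low Fe samples both above and below the high Fe range. Its difference of -0.21 ± 0.50 turned to 0.41 without low Fe 2.

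The sterol and bile acid enzymes follow. Cyp27a1, the mitochondrial sterol hydroxylase of bile acid synthesis, had 1738.8, 1316.9 and 1631.9 in high Fe and 1152.8, 1101.9 and 1003.9 in low Fe. All low Fe samples lay below all high Fe samples. The means were 1563 ± 219 and 1086 ± 75.7 (SD, n = 3 each), and the difference was -0.51 ± 0.14, or 1.42-fold lower in low Fe (limma unadjusted p = 0.00609, adjusted p = 0.542). Leaving out single arrays gave -0.63 to -0.43, and the difference was -0.72 within the arrays of lower GAPDH ratio and -0.34 within the others.

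Cyp7a1, the rate-limiting enzyme of bile acid synthesis, had 145.4, 111.2 and 164.4 against 85.6, 129.1 and 164.7, and Cyp8b1, which shapes the bile acid pool, had 75.4, 184.5 and 172.0 against 140.4, 98.9 and 109.9. Both lay near the boundary and overlapped between groups, with differences of -0.16 ± 0.25 and -0.20 ± 0.30. Cyp39a1, an oxysterol hydroxylase on 230B, had 247.9, 299.8 and 286.9 against 278.4, 180.7 and 298.9, a difference of -0.16 ± 0.28. Cyp51, the lanosterol demethylase of cholesterol synthesis, was read by a pair of probe sets that lay on opposite sides of 0. The brighter had 1318.3, 1890.6 and 1511.4 against 1148.7, 1560.0 and 1594.2, a difference of -0.13 ± 0.18. The dimmer had 555.1, 486.0 and 462.4 against 398.3, 613.7 and 643.6, a difference of 0.11 ± 0.20.

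Among enzymes of steroid hormones, Cyp17a1, the hydroxylase and lyase of androgen synthesis, had 5553.6, 6069.6 and 5001.9 in high Fe and 5554.4, 4823.7 and 5395.5 in low Fe. The groups overlapped, and the difference of -0.07 ± 0.12 had an interval from -0.35 to 0.20. Cyp11a1, the cholesterol side-chain cleavage enzyme, had 140.3, 159.1 and 165.6 against 165.6, 109.6 and 183.1, a difference of -0.04 ± 0.21. Cyp19a1, aromatase, was under the boundary on 230A, with 6.5 to 13.0 on single arrays, while a pair of probe sets on 230B was tested. These had 459.9, 318.4 and 651.8 against 373.9, 418.9 and 338.7, and 556.5, 404.5 and 678.6 against 431.6, 554.9 and 498.4, with differences of -0.27 ± 0.27 and -0.12 ± 0.23. High Fe 3 was the highest sample in both. Cyp27b1, which makes active vitamin D, lay just above the boundary, and by its mean above it only in high Fe, with 101.2, 132.9 and 116.0 against 90.1, 85.3 and 126.5, a difference of -0.20 ± 0.21.

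Cyp20a1, a P450 with no well established substrate, was on 230B with 159.7, 135.1 and 158.1 in high Fe and 204.9, 360.4 and 257.4 in low Fe. Every low Fe sample lay above every high Fe sample. All 3 high Fe values lay under the boundary signal of 182.9, and the probe set was tested only because its low Fe values raised the mean over all 6 arrays, so its difference is given as a description. The means were 151 ± 13.8 and 274 ± 79.1 (SD, n = 3 each), and the difference was 0.77 ± 0.33, which did not pass (limma adjusted p = 0.485). It was 0.87 within the arrays of lower GAPDH ratio and 0.45 within the others, and leaving out single arrays gave 0.56 to 0.95.

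The 31 untested probe sets on 230A had means from 1.70 to 102 and the 2 on 230B from 79.5 to 145. Without a test, the groups did not overlap for 6 of the 31: Cyp1a2, Cyp2a2, Cyp2b12, Cyp2d3 and Cyp2f4 had lower signals in low Fe and Cyp2c11 had higher. Of all 6347 untested probe sets on 230A, 7.23% had lower signals in low Fe without overlap and 3.21% higher. Cyp2b12 had at least 18.2 in each high Fe sample and at most 9.8 in each low Fe sample, and Cyp2d3 had 109.6, 124.9 and 148.4 against 70.0, 52.7 and 87.4. The retinoic acid hydroxylases Cyp26a1 and Cyp26b1, and Cyp7b1, Cyp11b1, Cyp21a1 and Cyp46a1, overlapped between groups.

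**Figure D3:**
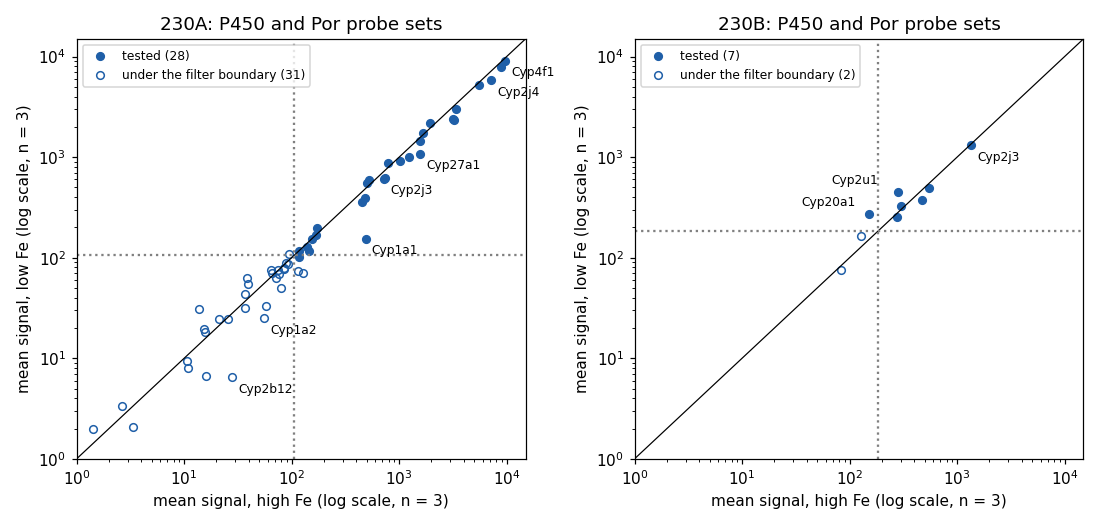
Mean signal of each P450 and Por probe set in low Fe against high Fe (both axes log scale, n = 3 each), for 230A on the left and 230B on the right; filled points were tested, open points were not, dotted lines mark the boundary signals of 106 and 182.9, and the diagonal marks equal means. Cyp1a1 lies farther under the diagonal than the other filled 230A points, and levels of different probe sets are not comparable.

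Por, which feeds electrons to the P450s of the endoplasmic reticulum, was read by a pair of probe sets on 230A. The brighter had 2071.1, 1566.1 and 2155.4 in high Fe and 1998.0, 2238.0 and 2306.6 in low Fe, a difference of 0.19 ± 0.15 (limma adjusted p = 0.838). The dimmer had 999.3, 1089.8 and 1578.6 against 1342.2, 1020.0 and 678.1, a difference of -0.29 ± 0.26 (limma adjusted p = 0.851). That of the dimmer was -0.52 without low Fe 1 and -0.03 without low Fe 3, and that of the brighter 0.04 without high Fe 2. The groups overlapped in both, and the sign of the difference was not shared. Their intervals ran from -0.16 to 0.53 and from -0.88 to 0.29.

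Of the other electron partners, Cyb5b, the cytochrome b5 of the outer mitochondrial membrane and itself a heme protein, was lower in every low Fe sample by both of its probe sets. The brighter had 2409.9, 3107.1 and 2692.8 in high Fe and 1898.9, 1921.2 and 2090.5 in low Fe, a difference of -0.46 ± 0.13 (limma adjusted p = 0.543). The dimmer had 2161.1, 2247.5 and 2005.0 against 1281.9, 1474.4 and 1335.9, a difference of -0.64 ± 0.12 (limma adjusted p = 0.184). Pgrmc1, a heme-binding partner of P450s, differed by -0.36 ± 0.16, Cyb5a, the microsomal cytochrome b5, by -0.14 ± 0.12, and the brighter Pgrmc2 probe set by -0.27 ± 0.20. Of 7 tested genes of the list on 230A, Por included, 0 passed, 6 were below 0 and 1 above, with a median of -0.14. For comparison, 53.1% of all tested 230A probe sets were below 0 and 0.0945% passed.

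The heme list gave 1 of 9 tested genes past the threshold on 230A, Hmox1, the oxygenase that opens heme and releases its iron. Of all tested 230A probe sets, 0.0945% passed (9 of 9519). Hmox1 had 696.6, 466.5 and 582.4 in high Fe and 1411.7, 1407.6 and 1526.8 in low Fe, a difference of 1.31 ± 0.16 (limma adjusted p = 0.0251). The call was lost without high Fe 2 (limma adjusted p = 0.0606), high Fe 3 (limma adjusted p = 0.118), low Fe 2 (limma adjusted p = 0.188) or low Fe 3 (limma adjusted p = 0.136), with no filter (limma adjusted p = 0.0737) and with the replicate number as a block (limma adjusted p = 0.152). Alas1, the rate-limiting enzyme of heme synthesis outside red cell precursors, had 1840.2, 1765.4 and 1606.7 in high Fe and 2788.4, 2855.9 and 2336.4 in low Fe. Its groups did not overlap, and the difference of 0.61 ± 0.13 did not pass (limma adjusted p = 0.313). Ppox, a later enzyme of the pathway, differed by 0.36 ± 0.16 without overlap (limma adjusted p = 0.747), and Fech, which inserts the iron, by -0.19 ± 0.21. The list had 6 genes above 0 and 3 below, with a median of 0.14. Of all tested 230A probe sets, 46.9% were above 0 and 53.1% below. On 230B 0 of 3 passed.

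**Figure D4:**
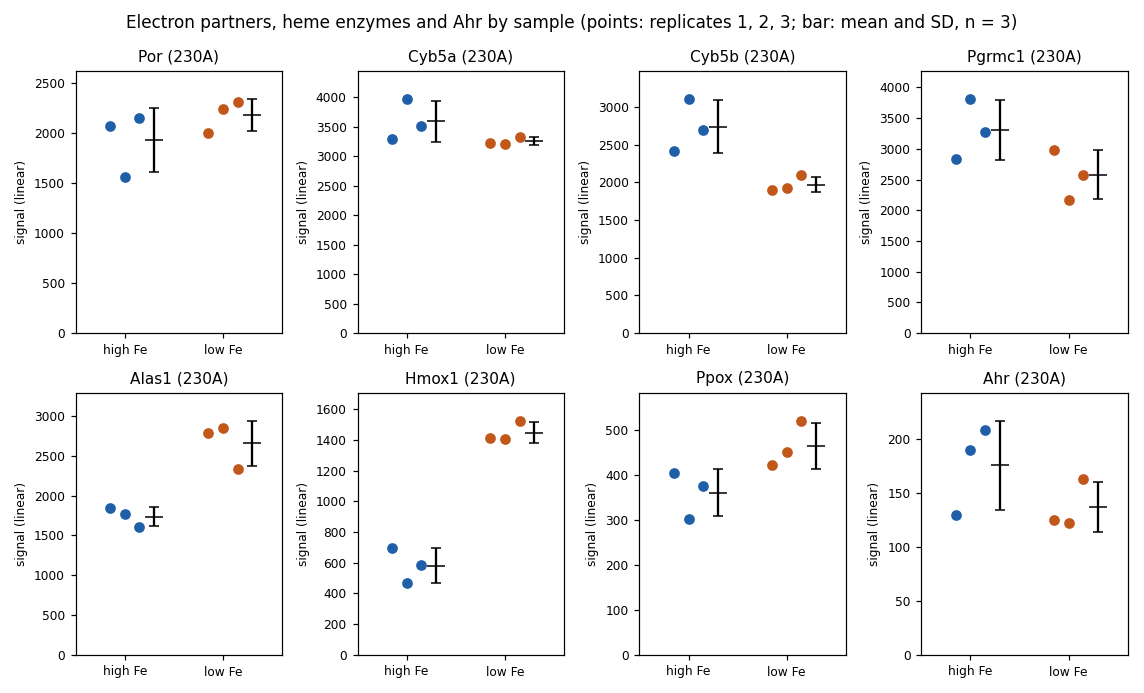
Linear signal of the brighter Por probe set, of Cyb5a, Cyb5b, Pgrmc1, Alas1, Hmox1, Ppox and Ahr in each 230A sample, with high Fe in blue and low Fe in orange and a bar for the mean and SD (n = 3); each axis starts at 0. The low Fe points of Hmox1, Alas1 and Ppox lie above all their high Fe points, those of Cyb5b lie below, and the others overlap.

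Of the regulators of P450 genes, 0 of 22 tested genes on 230A and 0 of 3 on 230B passed, with 7 above 0, 15 below and a median of -0.09 on 230A. Nr1i2, the pregnane X receptor that induces family 3, had 920.1, 1165.3 and 806.4 in high Fe and 1005.4, 881.9 and 767.5 in low Fe, a difference of -0.11 ± 0.17 that turned to 0.03 without high Fe 2. Of the other enzymes and transporters of foreign compounds, 0 of 15 passed on 230A and 0 of 3 on 230B, with a 230A median of 0.0008. Of the 15, 8 were above 0 and 7 below. For both lists, the share of all tested 230A probe sets was 46.9% above 0 and 53.1% below, and 0.0945% passed. Sult1b1, a sulfotransferase, was lower without overlap by -0.47 ± 0.19 (limma adjusted p = 0.720), and Abcc2, an efflux pump, differed by 0.43 ± 0.21 (limma adjusted p = 0.761). Abcb1a differed by 0.45 ± 0.27 with overlap by its brighter probe set (limma adjusted p = 0.782). By the dimmer it was higher without overlap, by 0.40 ± 0.16 (limma adjusted p = 0.727).

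Markers of the cell types in a scrape had the following signals on 230A. Directions of their differences stand beside 53.1% below 0 and 46.9% above among all tested 230A probe sets. The enterocyte list, 11 of 11 tested, summed to signals of 104457 to 168479 in high Fe and 107640 to 135802 in low Fe, with 10 genes below 0 and a median difference of -0.13. The proliferation list (5 of 8 tested, 4 above 0 and 1 below) summed to 1673 to 1921 in high Fe and 2561 to 4017 in low Fe, of which Pcna alone had 1000 to 1068.2 and 1736.8 to 2686. The smooth muscle list (5 of 8 tested, all above 0) summed to 3505 to 4211 and 4523 to 5928, of which Mylk alone had 2436 to 2925.9 and 3390.7 to 4013.3. The lymphocyte list summed to 2298 to 2475 and 2334 to 2871 and the goblet and endocrine list to 43421 to 58586 and 46268 to 50037. Of the liver and pancreas lists, 2 of 6 and 1 of 6 genes were above the boundary. On 230B the smooth muscle sums overlapped, with 919 to 1346 in high Fe and 882 to 1444 in low Fe. Of the 4 genes 2 were tested, both above 0, against 45.0% of all tested 230B probe sets. The part of cell makeup in the P450 differences was not tested. The 5' to 3' ratio of the beta-actin controls was 0.0539 in low Fe 3 on 230A, against 0.591 to 0.836 on the other arrays of that type.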

How the data were processed

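RNA from rat jejunal mucosal scrapes had been hybridized to Affymetrix 230A and 230B arrays, 3 samples per group and type, with groups and numbers taken from the titles. The tables deposited by the authors hold 1 linear intensity per probe set and array, with a mean of about 500 on each array after trimming both ends. For the software that made them, the sources used here give no name. All 12 columns were used.

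Each array type was fitted on its own on log2(signal + 16), by lmFit and then eBayes (trend on, no block) of limma 3.58.1 under R 4.3.3. Probe sets whose mean of log2(signal + 16) was in the lowest 40% were left out. This filter was first run on the mean linear signal and was changed after those results had been seen, to match the processing of an earlier analysis of these data; the first form is among the alternatives. Benjamini-Hochberg adjustment ran over all tested probe sets of a type. Intervals are 95%. The members, gene lists and tests were chosen with earlier results of these data known. The rule gave values in every sample to tested members without overlap between groups, to the smallest unadjusted p of each family, to Por and to genes with several probe sets, and up to 4 genes of each other list with the smallest unadjusted p, plus Alas1, Hmox1, Ahr and Nr1i2; further genes and samples' values were chosen after the values were seen. The brightest probe set stands for a gene of these lists.

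Of 1-symbol probe sets, 12748 of 12783 on 230A and 7524 of 7564 on 230B matched RefSeq (GRCr8) by Entrez identifier, all 68 members among them. Same-numbered samples deviated from their group means with correlations of -0.36, -0.15 and -0.25 on 230A and -0.27, -0.10 and -0.17 on 230B, so numbers were not taken as pairs. The steps were tested on simulated data.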

Additional observations from a re-analysis of the deposited data

How the results depend on the processing

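The count of P450 and Por probe sets past the threshold was 0 on both array types under the other pseudocounts, filters, scalings, eBayes settings and blocks, at adjusted p 0.1 and with single arrays left out (0 to 0 on each type), except that scaling to the hybridization controls gave 1 on 230A, Cyp1a1, where 32 of all 9519 probe sets passed against 9; its p-values are of differences as scaled, not relative to all probe sets. With single arrays left out the members' median difference lay between -0.18 and -0.11 on 230A, and on 230B between -0.10 and 0.05. The filter on the mean linear signal, added after the data were seen, tested 27 members on 230A, without Cyp27b1, and called 0. An unadjusted limma p under 0.05 then held for 4 of 27 members on 230A, all lower, against 3.55% of all probe sets in that direction, and for 0 on 230B.

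With the replicate number as a replicate block, 0 members passed on either type, and 4 probe sets in all passed on 230A against 9; Hmox1 did not pass (limma adjusted p = 0.152), nor with no filter (limma adjusted p = 0.0737). Its difference was 1.31 in both fits and ran from 1.16 to 1.33 with the arrays left out that cost it the call.

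Signs turned under a common median for Cyp11a1 (0.019), the 230B probe set of Cyp2j3 (0.079) and the brighter Cyp19a1 (0.013); under quantile normalization for Cyp11a1 (0.024), Hnf4a (-0.15) and Fmo5 (-0.12) of 230B; and with RNA quality as a block for Cyp8b1 (0.042), Cyp11a1 (0.022), the dimmer Cyp51 (-0.034), Cyp2s1 (-0.024), Cyp2j3 of 230B (0.0073), Cyp2j10 (-0.054), Hnf4a (-0.025), Ahrr (-0.066) and Tiparp (0.27) of 230B. With single arrays left out, the median of a family moved by more than the spread between replicates in 16 of 30 refits, and 22 refits of members and 10 of other genes turned sign. The ranges on 230A were -0.38 to 0.12 for Cyp2d2, -0.25 to 0.019 and -0.014 to 0.32 for the brighter and dimmer Cyp51, -0.56 to 0.0021 for Cyp8b1, -0.35 to 0.066 for Cyp7a1, -0.18 to 0.16 for Cyp11a1, -0.12 to 0.28 for Cyp1b1, -0.24 to 0.028 for Cyp3a9, -0.67 to 0.41 for Cyp4a3, -0.11 to 0.25 for Cyp2s1 and -0.23 to 0.030 for Nr1i2. On 230B they were -0.20 to 0.039 for Cyp2j3, -0.31 to 0.051 for the brighter Cyp19a1, -0.29 to 0.054 for Cyp39a1, -0.10 to 0.38 for Cyp2j10, -0.43 to 0.044 for Blvrb, -0.37 to 0.041 for Rxrg, -0.024 to 0.093 for Hnf4a, -0.18 to 0.20 for Ahrr, -0.99 to 0.38 for Tiparp and -0.023 to 0.22 for Fmo5.

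The cause of these changes was not tested. With 3 arrays per group, members' 95% intervals reached a median of 0.46 (log2) to either side of the estimate, from 0.22 to 1.31, which limits the size of change that could be seen.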
